A study of Rattus norvegicus with 20 samples.

Results

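The noradrenergic neuron genes studied here are 9 genes that mark sympathetic neurons making noradrenaline: Th, Ddc, Dbh, Slc18a2, Slc6a2, Phox2a, Hand2, Gata3 and Npy. They were taken by gene name from the scanner files, which gave 12 probes in 30 spots, 3 of the genes having 2 probes each, out of 30367 probes on the array. Total RNA of whole mesenteric artery was hybridised to 20 single-colour arrays in 5 groups of 4, labelled as biological replicates. Nothing else says which animals they came from, so p-values measure the spread between these samples. The groups were untreated stroke-prone spontaneously hypertensive rats (SHRSP/Izm), untreated spontaneously hypertensive rats (SHR/Izm), and normotensive Wistar-Kyoto rats (WKY/Izm) that had the 1-kidney 1-clip operation (1K1C), the 2-kidney 1-clip operation (2K1C) or no operation. In 1K1C one renal artery is narrowed and the other kidney removed, and in 2K1C the other kidney stays in place. The labels give an age of 6 weeks for all rats and a course of 3 weeks for the operated and untreated WKY, without settling whether the age is that at operation or at sampling. Inbred strains differ at many loci, so SHRSP and SHR differ from WKY in more than blood pressure. Mixed tissue was profiled, so a lower number of nerve cells and less RNA per cell cannot be told apart.

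Sympathetic neurons make noradrenaline from tyrosine in steps: tyrosine hydroxylase, the rate-limiting enzyme encoded by Th, forms L-DOPA, the decarboxylase encoded by Ddc forms dopamine, and dopamine beta-hydroxylase, encoded by Dbh, completes the synthesis inside vesicles that the transporter encoded by Slc18a2 has loaded. The transporter encoded by Slc6a2 takes released noradrenaline back up, neuropeptide Y (Npy) is released with it and constricts vessels, and Phox2a, Hand2 and Gata3 are transcription factors that set up and keep this identity. The cell bodies lie in sympathetic ganglia, and their axons form a plexus around the smooth muscle of mesenteric arteries.

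Of the 9 genes, 8 had a promoter in the RefSeq table (build GRCr8), and 3 are shown, picked from the genes whose signals were high on the same arrays. Ddc and Npy were also high on those arrays, and their promoters are not shown. Each sequence is the 250 bases before the annotated start in gene orientation, Th at chr1:207508219-207508468 on the minus strand, Dbh at chr3:30886078-30886327 on the plus strand, and Slc18a2 at chr1:268399771-268400020 on the plus strand. Capitals mark TGACGTCA, the full cyclic AMP response element, which reads the same on both strands, and ATTA on either strand, the core that homeodomain factors such as Phox2a bind. Neighbouring ATTA matches can overlap.
Th: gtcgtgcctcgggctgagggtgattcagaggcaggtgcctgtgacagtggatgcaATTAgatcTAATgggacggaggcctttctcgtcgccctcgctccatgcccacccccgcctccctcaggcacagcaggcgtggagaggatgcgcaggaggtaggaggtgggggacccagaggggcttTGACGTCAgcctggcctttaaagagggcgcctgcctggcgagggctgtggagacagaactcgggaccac
Dbh: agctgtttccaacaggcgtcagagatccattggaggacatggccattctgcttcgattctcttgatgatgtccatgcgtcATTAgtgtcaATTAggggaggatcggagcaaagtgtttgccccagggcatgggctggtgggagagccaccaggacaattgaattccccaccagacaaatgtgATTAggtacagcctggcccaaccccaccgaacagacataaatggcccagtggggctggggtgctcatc
Slc18a2: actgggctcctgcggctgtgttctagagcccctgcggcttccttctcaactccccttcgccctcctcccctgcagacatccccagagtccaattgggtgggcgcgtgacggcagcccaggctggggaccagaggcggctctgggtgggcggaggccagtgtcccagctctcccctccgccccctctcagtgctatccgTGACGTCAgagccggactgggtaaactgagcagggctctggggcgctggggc
TGACGTCA occurred in the promoters of Th and Slc18a2, 2 of the 8 genes, at -69 and -52 from the start, and in 1.59% of the 33469 promoters of the table. ATTA occurred in 6 promoters of 4 of the 8 genes (Th, Dbh, Ddc and Hand2), Ddc having several promoters, and in 57.0% of all promoters. Counts over genes and shares over promoters are not the same measure. A match says only that these letters are there.

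High signals of the noradrenergic genes were seen on 2 of the 20 arrays, untreated WKY replicate 1 and 2K1C replicate 1, and no group carried them as a whole. Levels are log2 signals relative to the 75th percentile of the array, so that 0 is the signal of a fairly bright spot and a probe under about -6 is mostly not well above background. Untreated WKY replicate 1 was the highest array for 8 of the 9 genes, the exception being Hand2, and the 2 arrays were the 2 highest, with signal above background on both, for 6 of 9. Differences of the noradrenergic genes between groups are given with and without these 2 arrays.

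**Figure D1:**
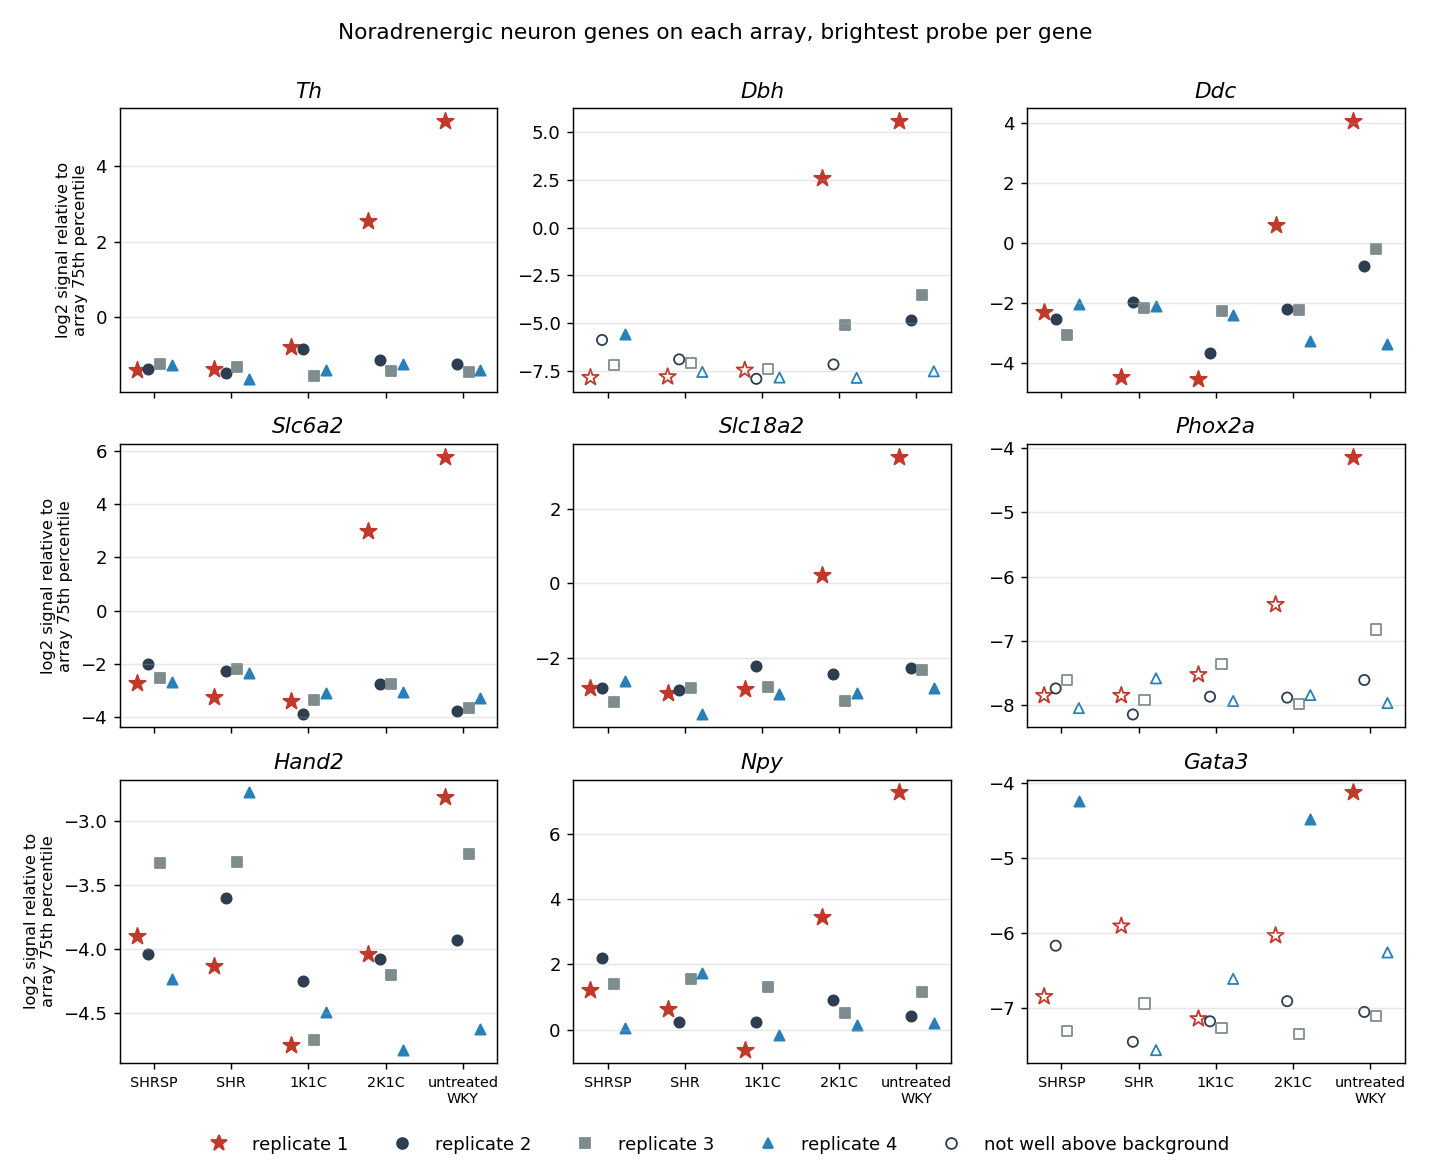
Log2 signal of the brightest probe of each gene on every array, by group (x axis), with 4 arrays per group marked by replicate number and open symbols where the probe was not well above background; vertical scales differ between panels. The stars of untreated WKY and 2K1C stand above every other array for Th, Dbh, Ddc, Slc6a2, Slc18a2 and Npy.

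Among the enzymes of synthesis, Th was at -1.37, -1.35, -1.22 and -1.25 in SHRSP replicates 1 to 4 and at -1.35, -1.45, -1.30 and -1.62 in SHR. It was at -0.79, -0.82, -1.55 and -1.39 in 1K1C, at 2.55, -1.13, -1.40 and -1.21 in 2K1C, and at 5.18, -1.24, -1.44 and -1.39 in untreated WKY. The first replicates of 2K1C and untreated WKY therefore stood 3.34 and 5.97 above the highest of the other 18 arrays, which spread with an SD of 0.21. Th was 14.9-fold over the median of those 18 in 2K1C replicate 1 and 92.3-fold in untreated WKY replicate 1.

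Dbh, which separates noradrenergic from dopaminergic cells, reached 2.59 in 2K1C replicate 1 and 5.57 in untreated WKY replicate 1. Its probe was well above background on 4 of the other 18 arrays: SHRSP replicate 4 at -5.56, 2K1C replicate 3 at -5.12, untreated WKY replicate 2 at -4.85 and untreated WKY replicate 3 at -3.54. No SHR or 1K1C array had it above background, with values between -7.81 and -6.90 in SHR and between -7.92 and -7.42 in 1K1C. Against the median of the other 18 arrays, with dim arrays set to the lowest signal well above background, Dbh was at least 353-fold higher in 2K1C replicate 1 and at least 2801-fold higher in untreated WKY replicate 1.

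Ddc, whose decarboxylase is shared with serotonin cells and other tissues, was at -2.30, -2.53, -3.06 and -2.04 in SHRSP and at -4.48, -1.96, -2.16 and -2.10 in SHR. It was at -4.54, -3.68, -2.28 and -2.40 in 1K1C, at 0.59, -2.19, -2.22 and -3.27 in 2K1C, and at 4.08, -0.76, -0.18 and -3.36 in untreated WKY. Here 3 of the 4 untreated WKY arrays stood above all SHRSP, SHR and 1K1C arrays, and the fourth among them. The second Ddc probe, 1 spot, followed at 0.61 in untreated WKY replicate 1 and -2.94 in 2K1C replicate 1, with untreated WKY replicate 3 next at -3.51.

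Of the transporters, Slc18a2 was between -3.18 and -2.63 in SHRSP, between -3.51 and -2.80 in SHR and between -2.96 and -2.22 in 1K1C. In 2K1C it was at 0.22, -2.44, -3.14 and -2.95, and in untreated WKY at 3.39, -2.26, -2.31 and -2.81. Replicate 1 of each of these 2 groups stood 2.43 and 5.60 above the highest of the other 18 arrays, and those arrays overlapped between all groups.

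Slc6a2 was at -2.71, -1.997, -2.53 and -2.69 in SHRSP and at -3.26, -2.28, -2.21 and -2.36 in SHR. It was at -3.40, -3.91, -3.35 and -3.10 in 1K1C, at 2.99, -2.76, -2.75 and -3.07 in 2K1C, and at 5.79, -3.76, -3.65 and -3.29 in untreated WKY. The same 2 arrays were high, 60.1-fold and 418-fold over the median of the other 18. Outside them, all SHRSP arrays and all SHR arrays lay above the 3 remaining untreated WKY arrays. The second Slc6a2 probe, which reads a neighbouring stretch (rn4 chr19:15098497-15098556 against chr19:15098322-15098382), was at 4.29 in untreated WKY replicate 1 and 1.22 in 2K1C replicate 1, was above background on 5 of the other 18 arrays, and peaked among them at -4.31 in SHRSP replicate 2.

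The cotransmitter gene Npy was between 0.04 and 2.19 in SHRSP, between 0.23 and 1.74 in SHR and between -0.62 and 1.29 in 1K1C. It was at 3.45, 0.91, 0.50 and 0.13 in 2K1C and at 7.26, 0.43, 1.17 and 0.22 in untreated WKY. Untreated WKY replicate 1 was 5.07 above the highest of the other 18 arrays and 2K1C replicate 1 was 1.26 above it. The second Npy probe gave 5.11 and 1.36 on these 2 arrays and -2.49 to 0.15 on the others.

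The transcription factor genes were dim. Phox2a was well above background only on untreated WKY replicate 1, at -4.14, with 2K1C replicate 1 next in signal at -6.43 and the other arrays between -8.14 and -6.82. Gata3 was above background on 3 arrays, untreated WKY replicate 1 at -4.13, SHRSP replicate 4 at -4.24 and 2K1C replicate 4 at -4.49. Those last 2 arrays also had the highest mean signal of the 7 lymphocyte markers, -1.56 in SHRSP replicate 4 and -0.54 in 2K1C replicate 4, against at most -4.26 on each of the other 18 arrays. Gata3 is also a T cell gene, and the part of lymphocytes in its signal was not tested. Hand2 followed the others only in part: it was at -2.81 in untreated WKY replicate 1, just under its highest value of -2.77 in SHR replicate 4. In 2K1C replicate 1 it was at -4.04, near the median of -4.11 of the 18 arrays without the 2 high ones.

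Signals were higher on untreated WKY replicate 1 than on 2K1C replicate 1 for all 7 noradrenergic genes above background on both. Untreated WKY replicate 1 exceeded 2K1C replicate 1 by 2.63 for Th, 2.99 for Dbh, 3.48 for Ddc, 2.80 for Slc6a2, 3.17 for Slc18a2, 3.81 for Npy and 1.23 for Hand2, a median of 2.99. Over the 21 pan-neuronal genes above background on both, it was higher for 21, by 1.01 (Scg3) to 4.12 (Elavl4) with a median of 2.88. Over 18 such genes of the other sympathetic list it was higher for 13, by up to 3.30 (Chrna3), and the median difference was 1.22. Both arrays lay at the first position of the second row of their slides. The array at that position of the third slide, SHRSP replicate 1, had Th at -1.37 and Dbh at -7.85.

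**Figure D2:**
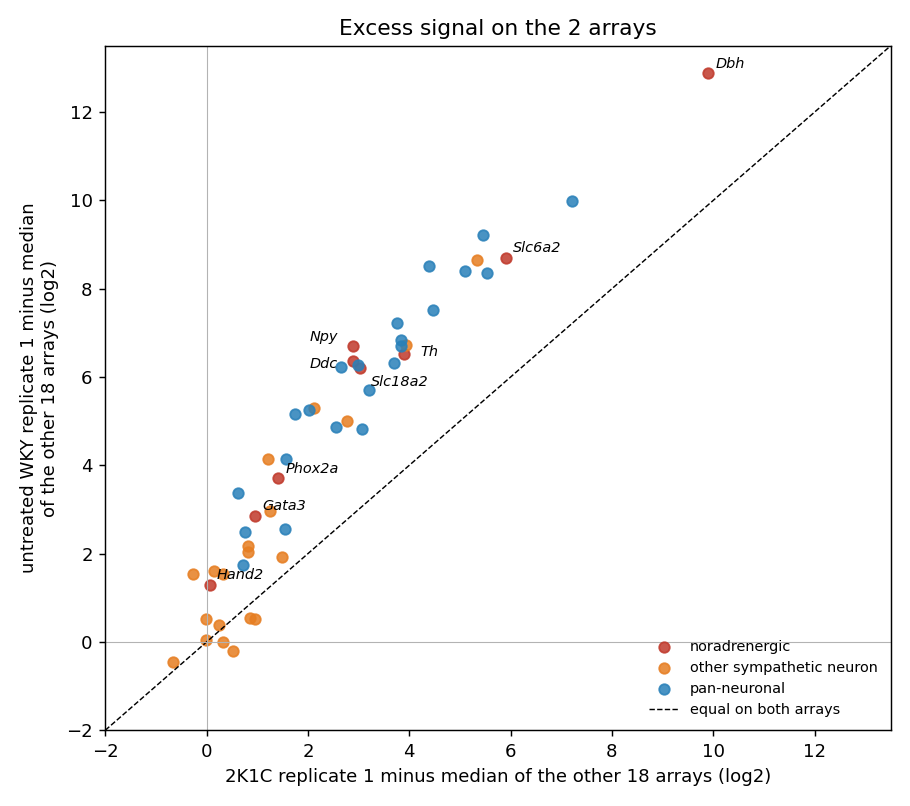
Excess of the log2 signal over the median of the other 18 arrays in 2K1C replicate 1 (x axis) and untreated WKY replicate 1 (y axis), 1 point per gene, for the noradrenergic, other sympathetic and pan-neuronal lists; the dashed line is equality. The noradrenergic genes above background on both arrays lie above the line, by 1.23 (Hand2) to 3.81 (Npy).

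Some other genes of the sympathetic neuron were high on the same arrays. Cyb561, which passes electrons into the vesicles for dopamine beta-hydroxylase, was at 1.78 in 2K1C replicate 1 and 4.95 in untreated WKY replicate 1, against -1.42 to 0.10 elsewhere. Gch1, which starts the synthesis of the cofactor of tyrosine hydroxylase, was at -2.28 and -0.30, against -3.59 to -2.64. The 2 arrays were the 2 highest, above background on both, for 4 of 22 genes of the other sympathetic list, 7 of 22 pan-neuronal genes and 1 of 8 genes of cofactor synthesis and monoamine breakdown, Gch1 itself. Untreated WKY replicate 1 alone was highest and above background for 10 of 22, 22 of 22 and 3 of 8. Of 6 adrenal chromaffin markers, untreated WKY replicate 1 was highest and above background for 5. The 2 arrays were the 2 highest for 2 of the 6, Chgb and Slc18a1, which the pan-neuronal and other sympathetic lists also hold. Chgb was at -0.01 and 3.29, against -7.15 to -0.12, and Slc18a1 at -2.63 and 0.16, against -7.83 to -3.87. Pnmt, which makes adrenaline and so separates chromaffin cells from most sympathetic neurons, was at -3.15 and -2.71, against -3.71 to -2.93. Penk was at -2.42 and -2.49, against -3.44 to -1.44. A part of chromaffin cells in these signals was not tested.

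By the measure of likeness used, the median Pearson r over 20 arrays with the 6 tested noradrenergic genes, 9 of the 10 most similar other genes were Cpne9 (0.915), Cyb561 (0.915), Nrip3 (0.899), Ywhah (0.892), Fkbp1b (0.887), Slc29a4 (0.881), Lgi3 (0.879), Rab15 (0.878) and Cnnm1 (0.875). With group means subtracted the same genes had a median r of 0.921, 0.925, 0.904, 0.886, 0.907, 0.898, 0.869, 0.911 and 0.867. Over the 18 arrays without the 2 high ones it was between 0.176 (Fkbp1b) and 0.447 (Cyb561), so the likeness rested on the 2 arrays. Cpne9, for example, was at -3.31 and -0.69 on them and between -6.35 and -5.11 elsewhere.

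A different set of neuron genes was high in untreated WKY replicates 2 and 3. Gal, the neuropeptide galanin, was at 5.50 and 5.95 on these arrays, and at -3.73 and -3.87 in replicates 1 and 4 of the same group. Vip, vasoactive intestinal peptide, was at 1.78 and 2.72, Tac1, which encodes substance P, at 1.92 and 2.75, and Calcb, a calcitonin gene-related peptide, at 0.18 and 1.02, against -5.60, -7.19 and -5.16 for the 3 genes in untreated WKY replicate 1. These 2 arrays were the 2 highest, above background on both, for 5 of 15 genes of the cholinergic, sensory and other neuron list and for 0 of the 9 noradrenergic genes. They shared with untreated WKY replicate 1 a raised mean of the pan-neuronal list, 1.44, -1.63 and -0.79 in replicates 1, 2 and 3 and -4.52 in replicate 4. Prph encodes peripherin, a filament protein of peripheral nerve cells, and was at 4.85, 1.57, 2.52 and -0.80 in replicates 1 to 4. Not every gene of the list did so. Map1b was at -2.20 and -1.56 in replicates 2 and 3, under its median of -1.19 over the 18 arrays without the 2 high ones. The moderate Ddc and Dbh signals of replicates 2 and 3 given above stood on the arrays with these peptides.

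**Figure D3:**
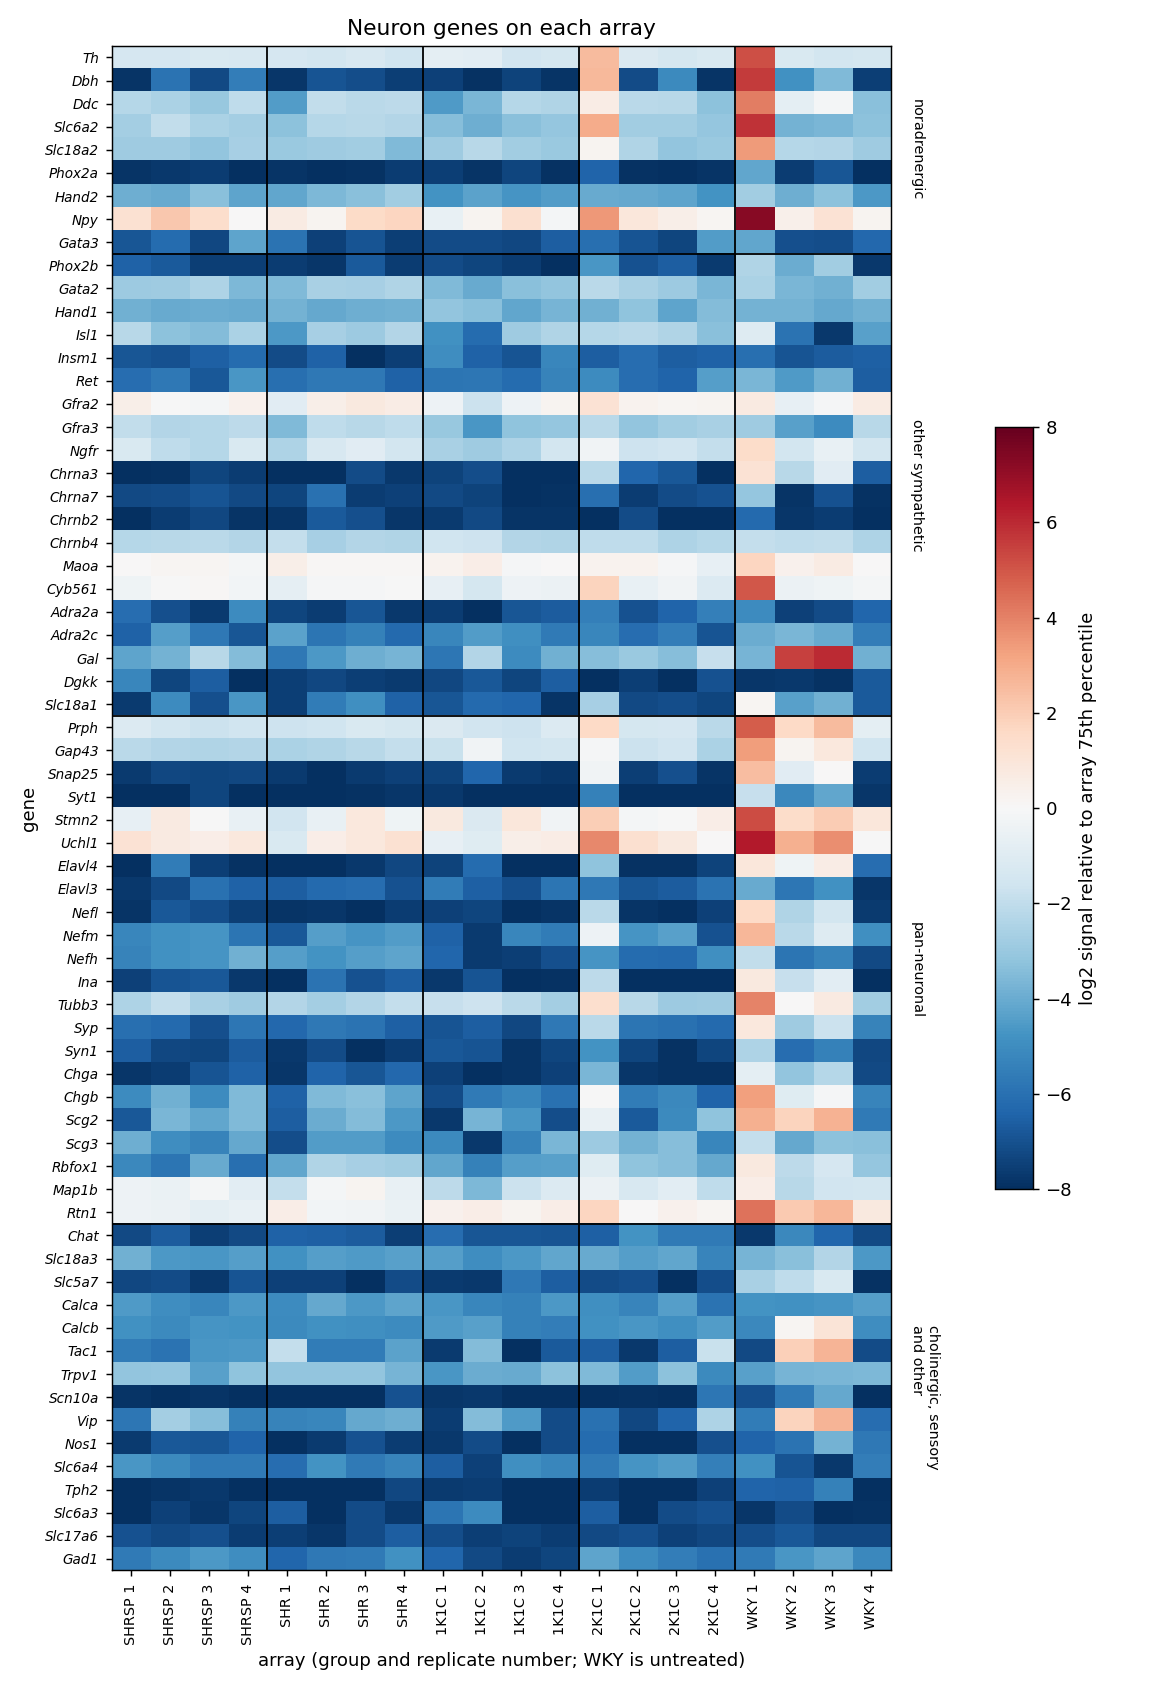
Log2 signal (colour) of neuron genes (rows, in 4 lists) on the 20 arrays (columns, by group). The rows of Th, Dbh, Ddc, Slc6a2, Slc18a2 and Npy are red on untreated WKY replicate 1. On 2K1C replicate 1 they are red, or pale for Ddc and Slc18a2. Phox2a, Hand2 and Gata3 are blue on both arrays. Gal, Tac1 and Vip are red and Calcb pale on untreated WKY replicates 2 and 3.

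Between 66.5% and 71.7% of the spots of an array were well above background, and 0 were saturated. The arrays lay on 3 slides: 2K1C on slide 1, 1K1C and untreated WKY on slide 2, SHRSP and SHR on slide 3. Smooth muscle markers, which define the tissue, were above background on all 20 arrays for 8 of 8 genes.

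The comparisons ask whether nerve genes in the artery differ between forms of hypertension. Calls required an adjusted p under 0.05 in limma, by the Benjamini-Hochberg method over 16424 genes. Th, Ddc, Slc6a2, Slc18a2, Hand2 and Npy passed the filter on dim probes and are the members tested, all of them above background on all 20 arrays, and Dbh, Phox2a and Gata3 did not pass. In SHRSP against untreated WKY 0 of 6 members were called, where 2.39% of all genes were, and 1 was under 0.05 before adjustment (16.7% of all genes). In SHR against untreated WKY 0 were called (1.84% of all) and 1 was under 0.05 unadjusted (14% of all), in 1K1C 0 (0% of all) and 2 (9.09%), and in 2K1C 0 (0.0122%) and 0 (22%). SHRSP against SHR gave 0 (0.359%) and 0 (3.56%), 1K1C against 2K1C 0 (0%) and 0 (21.5%), and the mean of SHRSP and SHR against the mean of 1K1C and 2K1C, called inherited against renovascular below, 0 (3.16% of all, 1.44% higher and 1.72% lower) and 1 (17.6%). Without the filter all 9 genes were tested, with 0 called in each comparison.

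Against untreated WKY, the group that held the array with the highest values, every fitted difference of the 6 members was negative except that of Hand2 in SHR. The member with the lowest adjusted p was Ddc in SHRSP (difference -2.43 ± 1.14, SE, adjusted p = 0.294) and in SHR (-2.62 ± 1.14, adjusted p = 0.306), with group means of -2.48 ± 0.43 in SHRSP, -2.68 ± 1.20 in SHR and -0.06 ± 3.08 in untreated WKY (SD, n = 4 each). In 1K1C it was again Ddc (-3.17 ± 1.14, adjusted p = 0.361), and in 2K1C Hand2 (-0.62 ± 0.34, adjusted p = 0.282). The median difference of the 6 members was -1.41 in SHRSP, -1.50 in SHR, -1.89 in 1K1C and -0.82 in 2K1C, beside 0.00, 0.02, 0.10 and 0.03 over all genes. These 4 comparisons share the untreated WKY arrays.

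The SE of Th was 1.11 with all arrays and 0.17 without the 2 high ones, and that of Slc6a2 1.63 and 0.26. Without them the difference of Th was 0.06 ± 0.17 in SHRSP, -0.07 ± 0.17 in SHR, 0.22 ± 0.17 in 1K1C and 0.11 ± 0.18 in 2K1C, each against the 3 remaining untreated WKY arrays. Its group means on these 18 arrays were, in falling order, -1.14 ± 0.39 in 1K1C (n = 4), -1.25 ± 0.14 in 2K1C (n = 3), -1.30 ± 0.07 in SHRSP (n = 4), -1.36 ± 0.10 in untreated WKY (n = 3) and -1.43 ± 0.14 in SHR (SD, n = 4). Each neighbour in this order lay within the spread of the next, and the 2K1C and untreated WKY means rested on 3 arrays.

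**Figure D4:**
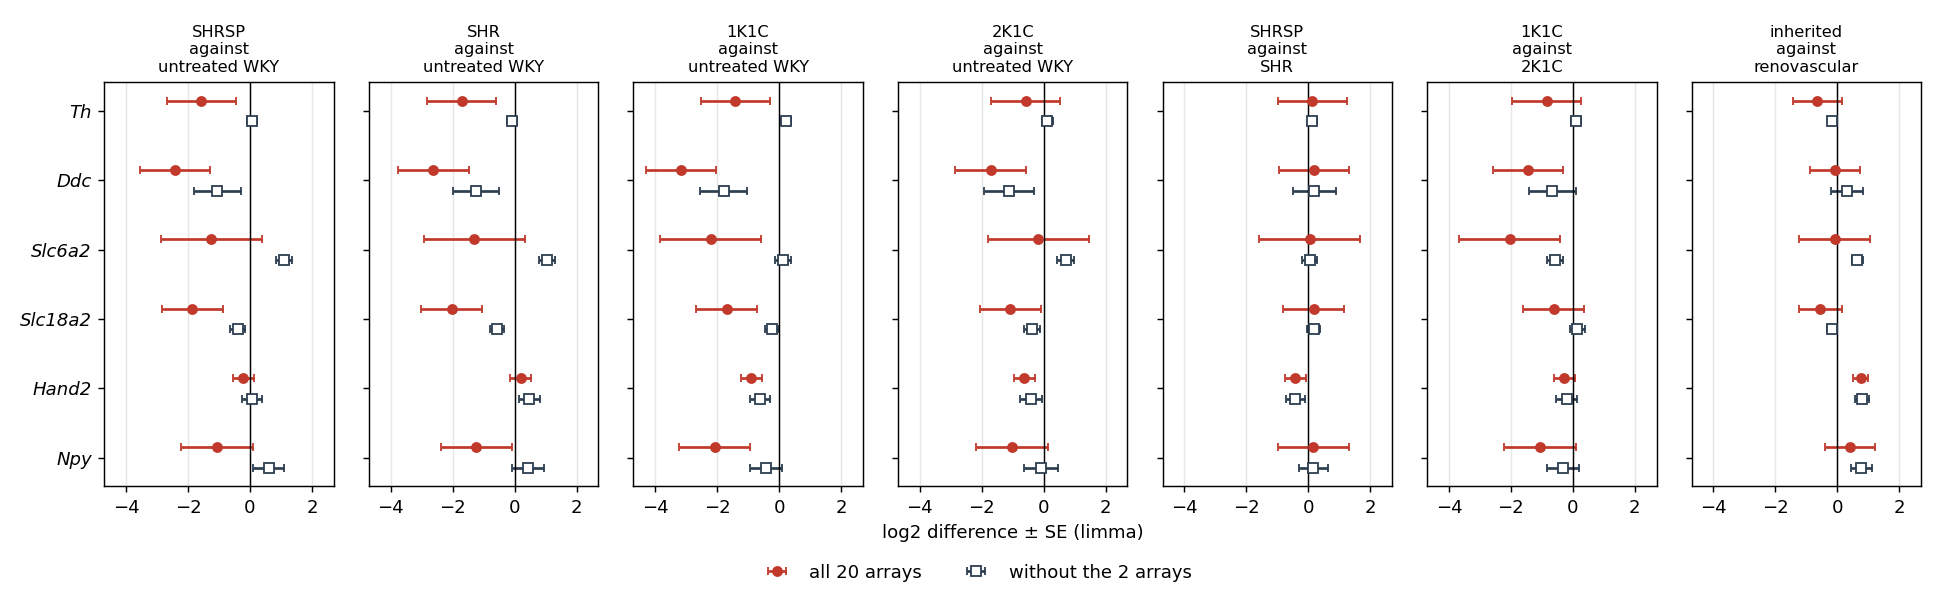
Log2 differences ± SE from limma for the 6 tested noradrenergic genes in the 7 comparisons, with all 20 arrays (filled) and without untreated WKY replicate 1 and 2K1C replicate 1 (open). Leaving the 2 arrays out shortens the bars of Th, Slc6a2, Slc18a2 and Npy and moves Slc6a2 to the right of 0 in SHRSP and SHR against untreated WKY.

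Slc6a2 changed sign in all 4 comparisons against untreated WKY without the 2 arrays, which had been picked by the signal of these same genes after the data were seen. Without the 2 arrays it was higher in SHRSP than in untreated WKY by 1.09 ± 0.26 (limma adjusted p = 0.0402), 1 of 6 members called where 2.08% of all genes were. In SHR it was 1.04 ± 0.26 higher (adjusted p = 0.0591, not called; 0 of 6 members, 1.49% of all genes), in 2K1C 0.71 ± 0.28 higher (adjusted p = 0.193) and in 1K1C 0.13 ± 0.26 higher (adjusted p = 0.902). With all arrays the same differences were -1.25, -1.30, -0.17 and -2.21. Of the 6 members, 1 in SHRSP and 2 in SHR were under 0.05 before adjustment over the 18 arrays (15.3% and 13.3% of all genes). In the other comparisons over 18 arrays limma called 0 of 6 members, where it called 0.0122% of all genes in 2K1C, 0% in 1K1C, 0.408% in SHRSP against SHR, 0% in 1K1C against 2K1C and 3.81% in inherited against renovascular. Before adjustment 1 (20.7% of all genes), 1 (9.19%), 0 (4.06%), 1 (17%) and 3 (20.4%) of the 6 were under 0.05 in these.

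Group means of Slc6a2 over the 18 arrays were -2.48 ± 0.33 in SHRSP, -2.53 ± 0.49 in SHR, -2.86 ± 0.18 in 2K1C, -3.44 ± 0.34 in 1K1C and -3.57 ± 0.25 in untreated WKY. SHRSP did not overlap untreated WKY, and neighbours in this order other than 2K1C and 1K1C overlapped. The call in SHRSP was lost without any one of untreated WKY replicates 2 or 3 or of the SHRSP replicates (adjusted p up to 0.229, difference 0.93 to 1.23), and held without untreated WKY replicate 4 (adjusted p = 0.0226). With normexp background correction the difference was 0.66 and still called. SHRSP and SHR lay on another slide than untreated WKY, so slide and group cannot be told apart. On the second probe SHRSP lay between -5.84 and -4.31 and the 3 untreated WKY arrays between -7.89 and -7.05, none of these 3 well above background.

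The Slc6a2 signal of the 18 arrays moved with markers of other cells. Permutations shuffled all 18 arrays without regard to group, so their p-values also take in differences between groups. With the mean of 11 Schwann and satellite glia genes, the cells that ensheath axons, r was 0.70 and rho 0.54 (permutation p = 0.00156 and 0.0246, adjusted p of r 0.0148 over 19 relations), and r was 0.55 without the 2 arrays farthest from the median of the list. Within slides it was 0.93 over 7 arrays of slide 2 and 0.59 over 8 arrays of slide 3, and slide 1 had 3. With the mean of 8 smooth muscle genes r was 0.65 and rho 0.65 (permutation p = 0.00145 and 0.00415, adjusted 0.0148), 0.55 without the 2 farthest arrays, 0.50 on slide 2 and 0.75 on slide 3. The Schwann list ran from -1.07 to -0.22 in SHRSP, from -2.08 to -0.43 in SHR, from -2.65 to -0.20 in 1K1C and from -1.46 to -0.18 in the 3 other 2K1C arrays, and was at -2.34, -2.46 and -0.22 in untreated WKY replicates 2, 3 and 4. The smooth muscle list ran from 3.70 to 4.86 in SHRSP, from 2.75 to 4.93 in SHR and from 0.79 to 3.90 in 1K1C, was at 3.46 or more in the 3 other 2K1C arrays, and was at 3.87, 4.38 and 3.58 in the same untreated WKY arrays. Their part in the Slc6a2 difference was not tested. Adipocyte genes moved the other way (6 genes, r = -0.67, rho = -0.65, adjusted p = 0.0165, -0.58 without the 2 farthest arrays, -0.38 on slide 2 and -0.59 on slide 3). With 22 pan-neuronal genes r was -0.31 and rho 0.38 (permutation p = 0.230 and 0.117, adjusted p of r 0.286). There r turned to 0.83 without the 2 farthest arrays and was -0.45 on slide 2 and 0.91 on slide 3, so its sign rested on those arrays.

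**Figure D5:**
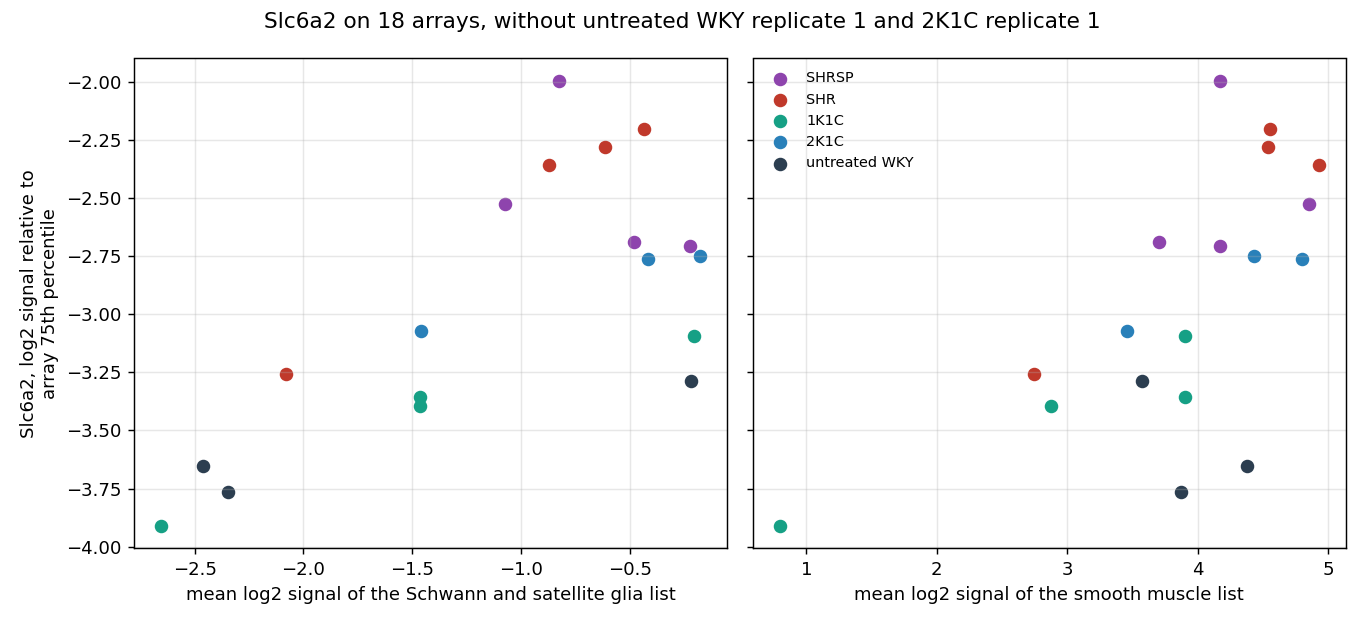
Slc6a2 log2 signal against the mean log2 signal of the Schwann and satellite glia list (left) and of the smooth muscle list (right) on 18 arrays, coloured by group. The 3 untreated WKY arrays lie between -3.76 and -3.29 and the 4 SHRSP arrays between -2.71 and -1.997, and 1K1C replicate 2 is lowest on all 3 measures.

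Over the same 18 arrays, with the same shuffling across groups, few of the noradrenergic genes varied together. Of 15 pairs among the 6 tested genes, Hand2 with Npy had r = 0.62 and rho = 0.67 (permutation p = 0.00579 and 0.00303, adjusted p of r 0.0275), 0.68 without the 2 farthest arrays, 0.48 on slide 2 and 0.44 on slide 3. Slc6a2 with Slc18a2 ran against each other (r = -0.58, rho = -0.48, permutation p = 0.0108 and 0.0468, adjusted p of r 0.0412, -0.43 without the 2 farthest arrays), with r of -0.97 on slide 2 and -0.05 on slide 3, so the relation did not hold on both slides. The other 13 pairs had adjusted p of 0.0849 or more. Th with Slc6a2 had r = -0.38 and Th with Npy r = -0.49. With all 20 arrays r of Th with Slc6a2 was 0.95, which the 2 high arrays carried.

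Hand2 had its own pattern between groups. Its means were -3.87 ± 0.39 in SHRSP, -3.46 ± 0.57 in SHR, -4.55 ± 0.23 in 1K1C, -4.28 ± 0.35 in 2K1C and -3.65 ± 0.79 in untreated WKY (SD, n = 4 each). Inherited against renovascular differed by 0.75 ± 0.24 (adjusted p = 0.104, not called), and by 0.79 ± 0.23 (adjusted p = 0.0685) without the 2 high arrays. SHRSP and SHR shared slide 3, and 1K1C and 2K1C lay on the others, so slide and form of hypertension cannot be told apart. In the other direction of the design, SHRSP against SHR within slide 3, Hand2 differed by -0.42 ± 0.34 (adjusted p = 1.00).

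Npy, Slc18a2 and Ddc had no called difference without the 2 arrays. Npy was 0.60 ± 0.51 higher in SHRSP (adjusted p = 0.611) and 0.43 ± 0.51 higher in SHR (adjusted p = 0.746), Slc18a2 differed by -0.40 ± 0.23 in SHRSP (adjusted p = 0.434) and -0.57 ± 0.23 in SHR (adjusted p = 0.289), and Ddc by -1.05 ± 0.75 in SHRSP (adjusted p = 0.537) and -1.24 ± 0.75 in SHR (adjusted p = 0.505), each against 3 untreated WKY arrays. Between the strains and within 1 slide, SHRSP against SHR gave 0.13 ± 1.11 for Th, 0.05 ± 1.63 for Slc6a2 and 0.17 ± 1.15 for Npy with the SE pooled over 20 arrays, and SEs of 0.16, 0.24 and 0.47 over 18.

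With all arrays limma called 0 genes in each of the 7 comparisons in 7 of the surrounding lists: other sympathetic (12 tested), cofactor synthesis and monoamine breakdown (8), cholinergic, sensory and other neurons (6), Schwann and satellite glia (9), neurotrophic factors (8), neuropeptide Y receptors and processing (5) and chromaffin (3). The highest counts under 0.05 before adjustment came in 2K1C (22% of all genes) for the other sympathetic list, with 5, for cofactor synthesis and monoamine breakdown, with 4, and for cholinergic, sensory and other neurons, with 3, which 1K1C (9.09%) also gave. They were 3 neurotrophic factor genes in SHR (14%) and in 2K1C, 2 Schwann genes in 1K1C against 2K1C (21.5%), 2 neuropeptide Y genes in SHRSP (16.7%) and in inherited against renovascular (17.6%), and 1 chromaffin gene in each comparison against untreated WKY. Without the 2 high arrays 2 of these lists gained a call, both in SHR, where 1.49% of all genes were called. These were Gal of the other sympathetic list (-7.03 ± 1.67, adjusted p = 0.0483), whose high values were those of untreated WKY replicates 2 and 3, and Maob, a monoamine oxidase, of the breakdown list (-1.87 ± 0.40, adjusted p = 0.0311).

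Pan-neuronal genes were lower in all 4 groups than in untreated WKY by the median of the 13 tested genes, -3.01 in SHRSP, -2.83 in SHR, -2.58 in 1K1C and -1.88 in 2K1C. Of them, 5 were called lower in SHRSP (1.24% of all genes were) and 3 in SHR (1.01% of all). In 1K1C and in 2K1C 0 were called lower (0% of all in each), and 0 were called higher. Before adjustment 10 in SHRSP, 11 in SHR, 12 in 1K1C and 6 in 2K1C were under 0.05 (16.7%, 14%, 9.09% and 22% of all genes). The comparisons among these groups were SHRSP against SHR, 1K1C against 2K1C and inherited against renovascular. They called 0 of the 13 with all arrays (0.359%, 0% and 3.16% of all genes). Before adjustment 1, 3 and 3 were under 0.05 (3.56%, 21.5% and 17.6% of all genes). Without the 2 high arrays 5 were called lower in SHRSP, 4 in SHR, 0 in 1K1C and 0 in 2K1C. Of all genes, 2.08%, 1.49%, 0% and 0.0122% were called in either direction in these fits. Nefh, a neurofilament gene, was then called higher in inherited against renovascular (1.87 ± 0.31, adjusted p = 0.00194), where 3.81% of all genes were called in either direction. Its probe was well above background on all 4 arrays only in SHRSP and SHR, so it passed the filter through the groups called higher. No 1K1C array had it well above background (-7.65 to -6.35). In 2K1C replicates 2, 3 and 4 it was at -6.13, -6.23 and -4.93, the first 2 not well above background. The renovascular side was thus largely background, and the size of this difference is not settled. Syp, counted among the calls in SHRSP, and in SHR without the 2 high arrays, had a like limit. Its probe was well above background on 6 arrays, and on all 4 arrays only in untreated WKY, the group where it was high. It was between -7.04 and -5.75 in SHRSP and between -6.54 and -5.72 in SHR. These sides were largely background, so the size of its differences is not settled either. Rtn1, a reticulon of neurons and endocrine cells, fell by 3.01 in SHRSP (adjusted p = 0.00325) and by 2.59 in SHR (adjusted p = 0.0141), and Gap43, a protein of growing axons, fell by 3.02 in SHRSP (adjusted p = 0.0278) and by 2.97 in SHR (adjusted p = 0.0390). Untreated WKY replicates 1, 2 and 3 held the high values behind these calls, Rtn1 being at 4.32, 2.09, 2.63 and 0.76 in the 4 untreated WKY arrays.

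Of 8 tested adrenergic receptors, Adra1b, the alpha-1B receptor through which noradrenaline contracts smooth muscle, rose by 0.81 ± 0.21 in SHRSP (adjusted p = 0.0496, 1.15% of all genes called higher), the only call of that list in the 7 comparisons. Without the 2 high arrays its adjusted p was 0.120.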

How the data were processed

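Per the labels' protocols, total RNA was copied into Cy3-labelled cRNA for Agilent arrays, and per the submitters' processing notes spots were read with Agilent Feature Extraction 10.7.3.1. The deposited files hold each spot's processed intensity, background-subtracted by the authors' scanner software per the file headers, and a deposited value table whose values equal it. Levels are the log2 of the deposited intensity minus the 75th percentile of the array over noncontrol spots. Outlier spots were left out, spots of a probe averaged, and a probe kept where well above background on all 4 arrays of a group. Each gene was read by its probe of highest mean (16424 genes), and Dbh, Phox2a and Gata3 did not pass. Coordinates of probes are those of rn4 in the files. Of 30367 probes, 18355 matched RefSeq accessions, which renamed 2935. Group differences were fitted over all 20 arrays with limma 3.58.1 in R 4.3.3 (lmFit, eBayes), two-sided, with Benjamini-Hochberg adjustment over all tested genes, and the fit was tested on simulated data. Other scalings, filters, weights, a replicate block and left-out arrays were tried. The number of arrays limits the precision. All 9 genes are named. From other lists, up to 4 called genes per list and comparison and 1 defining marker are named, and genes of like pattern by median r, taken from the 10 highest. Other genes named for their levels were chosen after their values were seen. The genes and lists were chosen with earlier results of these data known, and leaving out the 2 high arrays was chosen after seeing the data. Values of some other genes are not reported here.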

Additional observations from a re-analysis of the deposited data

Results flagged for a closer look

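In 12 of 60 checks of a probe in a group of 4 arrays, 1 array stood apart, its gap to the nearest other array divided by the range of the group exceeding 0.829. Chance flags about 1 in 20 groups. The 60 checks reuse the same 20 arrays, and 3 genes have 2 probes, so the flags are not independent and their number is not tested. In 3 checks that array was 2K1C replicate 1: Th (0.931), Slc6a2 (0.947) and Phox2a (0.910), where the Phox2a probe was not well above background. In 6 it was untreated WKY replicate 1: Th (0.970), Slc6a2 (0.950, second probe 0.931), Slc18a2 (0.910) and Npy (0.864 and 0.848). SHR replicate 1 was the lowest of its group for Ddc (0.923) and for both Slc6a2 probes (0.854 and 0.830). The second Slc6a2 probe, at -6.53, was not well above background there.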

How the results depend on the processing

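No member was called with all 20 arrays, and most alternatives kept that count. It was 1 with array weights in SHR and SHRSP against untreated WKY (Ddc) and inherited against renovascular (Hand2), and 1 for Hand2 in that last comparison with the deposited table unscaled or with the compared groups only. The share of all genes called under each of these settings is not given, so these counts have no background to be read against. Apart from left-out single arrays, the settings called 102 to 7127 genes in SHR, 161 to 5071 in SHRSP and 359 to 4018 in inherited against renovascular. Single arrays left out gave 0 to 1, the 1 in inherited against renovascular, where 367 to 777 genes were called in all. With array weights Slc6a2 turned to 0.93 in SHR, 0.79 in SHRSP and 1.59 in 2K1C, -0.14 in SHRSP against SHR and 0.18 in inherited against renovascular. Npy turned to 0.45 in SHRSP and 0.23 in 2K1C, Th to 0.55 in 2K1C, and Ddc to -0.31 in SHRSP against SHR and 0.19 in inherited against renovascular. Slc6a2 in SHRSP against SHR was -0.029 with quantile normalization and -0.057 with median scaling, with 20 or 18 arrays, and Ddc -0.000717 with normexp. The unscaled table gave 0.18 for Ddc and 0.18 for Slc6a2 in inherited against renovascular. The cause was not tested.

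Leaving out both high arrays, chosen after seeing the data, gave 1 called member in SHRSP. Slc6a2 turned to 1.04 in SHR, 1.09 in SHRSP, 0.71 in 2K1C, 0.13 in 1K1C and 0.65 in inherited against renovascular. Npy turned to 0.43 in SHR and 0.60 in SHRSP, Th to 0.059 in SHRSP, 0.11 in 2K1C, 0.22 in 1K1C and 0.11 in 1K1C against 2K1C, Hand2 to 0.063 in SHRSP, Slc18a2 to 0.15 in 1K1C against 2K1C and Ddc to 0.31 in inherited against renovascular. Over these 18 arrays, quantile, median and normexp scaling each called 1 member in SHR and 1 in inherited against renovascular. The share of all genes called under these scalings of 18 arrays is not given, so these counts have no background to be read against. Single arrays left out of the 18 gave 0 to 1 in SHR and SHRSP and 0 to 2 in inherited against renovascular, and for these the share of all genes is not given either.

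With single arrays left out, differences that changed sign ran as follows. Slc6a2 ran from -2.14 to 1.04 in SHR, -2.10 to 1.09 in SHRSP, -1.63 to 2.17 in 2K1C, -3.05 to 0.13 in 1K1C, -0.20 to 0.15 in SHRSP against SHR and -0.36 to 0.65 in inherited against renovascular. Npy ran from -1.91 to 0.43 in SHR, -1.75 to 0.60 in SHRSP, -1.75 to 0.64 in 2K1C and -0.16 to 0.56 in SHRSP against SHR. Hand2 ran from -0.12 to 0.48 in SHR and -0.54 to 0.063 in SHRSP. Th ran from -2.15 to 0.059 in SHRSP, -1.52 to 1.06 in 2K1C, -1.99 to 0.22 in 1K1C and -1.21 to 0.11 in 1K1C against 2K1C. Slc18a2 ran from -1.84 to 0.38 in 2K1C and -0.97 to 0.15 in 1K1C against 2K1C. Ddc ran from -0.41 to 0.43 in SHRSP against SHR and -0.33 to 0.31 in inherited against renovascular. Slc6a2 over 18 arrays ran from -0.20 to 0.15 in SHRSP against SHR.

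The arrays share only a replicate number (same-number correlations -0.57 to 0.64, and 5 of 20 arrays correlated best with their own number). With a replicate block 0 members were called in each comparison, and Hand2 in inherited against renovascular differed by 0.75. The block changed no call of a member. A slide as a random block could not be fitted. Dim probes limit Dbh, Phox2a and Gata3.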
